A study of Homo sapiens with 40 samples.

Results

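Cholesterol is built from acetyl-CoA through the mevalonate pathway and the sterol branch, and the genes of both are switched together by the transcription factors SREBP1 and SREBP2 (genes SREBF1 and SREBF2). When sterols are low, SCAP carries the SREBPs to the Golgi, where they are cut and released to the nucleus. When sterols are plentiful, INSIG proteins hold SCAP back, and oxysterols activate the LXR receptors (NR1H2 and NR1H3), which raise genes of sterol export such as ABCA1 and ABCG1. The 32 genes described here were chosen by symbol as members of this system, out of 60708 genes in each count file, and all 32 were found. They comprise 7 mevalonate and isoprenoid enzymes, 11 sterol branch enzymes, the 4 members of the SREBP system (SREBF1, SREBF2, SCAP, INSIG1), 4 other SREBP target genes (SCD, FASN, STARD4, NPC1), both LXR receptors and 4 LXR target genes (ABCA1, ABCG1, MYLIP, APOE). Other enzymes of the pathway are not analysed here. The rule names the members by symbol and not by a measured value, but they were chosen with earlier results of these data known.

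Their expression was followed in 24 RNA-seq libraries, 3 in each of 8 groups. MI-spheres are 3D cultures of MCF-10A, an immortalized line of breast epithelial cells, and MII-spheres are 3D cultures of its HRAS-transformed derivative MCF-10AneoT. Both were grown in ultra-low attachment plates and were either left unstimulated (Ctrl) or given TGFβ1 at 2.5 ng/ml for 16 h. The triple-negative breast cancer line MDA-MB-231 was grown as a monolayer: WT cells were set against cells labelled as a CRISPR/Cas9 knockout of SLUG (gene SNAI2), expanded from single-cell colonies, and cells with siRNAs against SMAD2, SMAD3 and SMAD4 (siSMAD2/3/4) against cells with a control siRNA (Csi). Each sphere contrast rests on 1 cell line per genotype, and the sphere and MDA-MB-231 groups differ in cell line and culture.

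Between 14124688 and 38406952 fragments per library were counted on genes. Levels are given as TMM-scaled CPM, the fragment count of a gene relative to the size of its library, with the SD over 3 libraries beside each mean. Changes are log2 fold changes ± SE, tested by quasi-likelihood in edgeR and adjusted by Benjamini-Hochberg across every gene that entered the fit. A gene was called at an adjusted p under 0.05, and a called gene with an absolute log2 fold change above 1 was a DEG. HRAS lay at 39.6 to 41.5 CPM in MI Ctrl and at 216 to 223 CPM in MII Ctrl. SMAD2 was at 90.6 ± 1.67 CPM in Csi and 24 ± 0.366 CPM in siSMAD2/3/4, SMAD4 at 55.4 ± 1.21 and 16.8 ± 1.11 CPM, and SMAD3 at 266 ± 6 and 166 ± 6.83 CPM. SNAI2 was higher, not lower, in the libraries labelled SLUG KO, at 57.8 to 64.3 CPM against 20.9 to 33.7 CPM in WT. The guide RNA targeted the start of exon 1, and a count over all exons does not read a small edit. These counts therefore do not check that label. The paper states that its knockout clones were checked by a PCR assay and immunoblotting. WT replicate 2 stood apart, with log2 CPM correlated across genes at r = 0.959 and 0.955 with WT replicates 1 and 3, against 0.995 between those. The epithelial marker CDH1 was at 527 ± 5.52 CPM in MI Ctrl and 566 ± 19.2 CPM in MII Ctrl. Of the 6 epithelial markers listed, 3 were called higher and 3 lower in MII Ctrl than in MI Ctrl: TP63 was at 51.2 ± 2.28 CPM in MI Ctrl and 0.621 ± 0.136 CPM in MII Ctrl, LAMB3 at 755 ± 9.52 and 467 ± 19.9 CPM, and EPCAM at 62.1 ± 3.95 and 187 ± 8.06 CPM. The mesenchymal marker VIM was at 785 ± 194 CPM in WT and 1008 ± 49.5 CPM in Csi. Of the other mesenchymal markers listed, ZEB1 was at 67 to 110.5 CPM in WT and 85.1 to 92.6 CPM in Csi. AXL was at 1112 to 1989 and 948 to 1003 CPM. CDH2 was low, at 0.373 to 1.69 CPM in WT and 0.972 to 1.37 CPM in Csi, against 8.97 to 11.4 CPM in MII TGFβ. In bulk RNA, fewer cells of a type and less RNA per cell cannot be told apart.

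Promoter sequence is given first, as a description, and its part in the changes below was not tested. RefSeq windows from 250 bases before to 50 bases after the transcription start (GRCh38.p14) were found for 27 of the 32 members, in 37 windows. Motifs were searched on both strands: the sterol regulatory element core TCACNCCAC, the CCAAT box CCAAT, the GC box GGGCGG and the E-box CACGTG. The CCAAT box was in windows of 20 of the 27 members (74.1%), against 39.7% of all 27305 genes with a window, and the GC box in 26 members (96.3%), against 48.3%. The E-box was in 5 members (18.5%), against 8.77%. The sterol element core in these exact letters was in 1 member, SREBF2 (3.7%), against 1.39% of all genes. The windows shown are those of SREBF2, of 4 members that rose in stimulated MI-spheres (STARD4, INSIG1, SCD and MSMO1) and of ABCA1, which did not. Each is the 250 bases before the start, read 5′ to 3′ on the gene's strand, with the sterol element and CCAAT boxes (also ATTGG, the same box on the other strand) in capitals.
SREBF2, chr22:41832855-41833104, plus strand: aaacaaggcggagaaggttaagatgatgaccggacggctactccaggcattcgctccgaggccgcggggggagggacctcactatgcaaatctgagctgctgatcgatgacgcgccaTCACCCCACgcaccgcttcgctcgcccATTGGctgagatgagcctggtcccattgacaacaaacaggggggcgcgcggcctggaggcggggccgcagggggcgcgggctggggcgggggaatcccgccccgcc
STARD4, chr5:111512536-111512785, minus strand: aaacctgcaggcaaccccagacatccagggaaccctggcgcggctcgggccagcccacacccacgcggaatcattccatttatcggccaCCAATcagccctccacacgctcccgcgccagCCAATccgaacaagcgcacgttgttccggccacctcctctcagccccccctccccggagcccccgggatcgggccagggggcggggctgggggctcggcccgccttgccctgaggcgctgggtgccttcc
INSIG1, chr7:155297628-155297877, plus strand: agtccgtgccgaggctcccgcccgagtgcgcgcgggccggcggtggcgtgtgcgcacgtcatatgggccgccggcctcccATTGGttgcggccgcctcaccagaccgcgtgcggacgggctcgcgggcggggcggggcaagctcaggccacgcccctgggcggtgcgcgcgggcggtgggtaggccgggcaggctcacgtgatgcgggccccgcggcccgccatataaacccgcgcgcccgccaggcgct
SCD, chr10:100346983-100347232, plus strand: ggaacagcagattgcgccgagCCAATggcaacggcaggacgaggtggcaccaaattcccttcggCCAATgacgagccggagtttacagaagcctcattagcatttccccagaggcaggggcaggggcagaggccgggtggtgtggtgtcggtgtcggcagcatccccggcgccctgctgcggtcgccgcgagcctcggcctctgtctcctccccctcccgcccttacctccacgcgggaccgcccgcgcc
MSMO1, chr4:165327419-165327668, plus strand: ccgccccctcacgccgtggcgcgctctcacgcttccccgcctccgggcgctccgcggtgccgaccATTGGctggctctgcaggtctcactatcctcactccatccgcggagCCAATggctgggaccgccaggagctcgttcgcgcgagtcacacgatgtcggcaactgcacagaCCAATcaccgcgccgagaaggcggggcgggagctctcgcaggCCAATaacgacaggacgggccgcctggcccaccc
ABCA1, chr9:104928156-104928405, minus strand: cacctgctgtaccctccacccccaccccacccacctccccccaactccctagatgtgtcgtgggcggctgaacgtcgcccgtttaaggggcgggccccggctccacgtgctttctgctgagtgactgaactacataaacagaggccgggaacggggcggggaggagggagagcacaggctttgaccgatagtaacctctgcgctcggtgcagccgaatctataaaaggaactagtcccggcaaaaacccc

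The SREBF2 window holds the sterol element 133 bases before the start and 1 reversed CCAAT box. MSMO1 holds 4 CCAAT boxes, STARD4 and SCD hold 2 each, and INSIG1 holds 1. ABCA1 holds none, and has an E-box 147 bases before its start. The INSIG1 window holds an E-box as well. In these windows no match of one motif overlapped a match of another. Among the windows not shown, CCAAT boxes were also in that of MYLIP, called lower in MI-spheres with TGFβ. They were in those of TM7SF2, SC5D and NR1H3 too, which were not called there. PMVK and CYP51A1, called higher there, had windows without a CCAAT box. A match is a run of letters and was not tested for binding. ACAT2, SQLE, FDFT1, ABCG1 and FASN had no window.

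TGFβ stimulation of MI-spheres came with higher expression along most of the pathway. Of the 32 members, 22 were called higher and 3 lower, where 28.7% of the 16863 genes tested were called higher and 27.4% lower. 8 members were DEGs, all of them higher, where 13.6% of all genes were DEGs in either direction. The median log2 fold change of the members was 0.48, and that of all genes tested was -0.02. All 7 mevalonate and isoprenoid enzymes were called higher (median 0.76), as were 9 of the 11 sterol branch enzymes (median 0.60). The median log2 CPM over the 18 enzymes was 4.62 ± 0.0273 in MI Ctrl and 5.47 ± 0.0386 in MI TGFβ.

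HMGCS1, which makes HMG-CoA at the head of the pathway (chr5:43287470-43313512, minus strand, GRCh38.p13), was at 38.5, 41.8 and 40.1 CPM in the MI Ctrl libraries and at 86, 75.2 and 91.1 CPM with TGFβ. Every stimulated library was above every control library, and the log2 fold change was 0.99 ± 0.0669 (adjusted p = 8.57e-11, edgeR). ACAT2, the thiolase that supplies acetoacetyl-CoA, rose from 11.3 ± 0.482 to 24.9 ± 3.47 CPM (log2 fold change 1.06 ± 0.0971, adjusted p = 9.79e-09, edgeR). The later steps moved less: MVK (mevalonate kinase) rose by 0.76 on the log2 scale, PMVK (phosphomevalonate kinase) by 0.59, MVD (the decarboxylase) by 0.44, IDI1 (the isomerase of the isoprene units) by 0.76 and FDPS (farnesyl diphosphate synthase) by 0.31. The libraries of the 2 groups did not overlap in any of these 7 genes. Such separation was not counted over all genes, here or in the other comparisons.

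In the sterol branch, SQLE, the squalene epoxidase and a rate-limiting step, rose most. It was at 33, 32.3 and 31.8 CPM in MI Ctrl and at 92.5, 81.5 and 101.2 CPM with TGFβ. The groups were far apart, at a 2.67-fold difference (log2 fold change 1.42 ± 0.0683, adjusted p = 2.89e-13, edgeR). DHCR7, the reductase of the last step to cholesterol, rose from 23.1 ± 0.906 to 53.2 ± 2.36 CPM (log2 fold change 1.12 ± 0.0705, adjusted p = 2.37e-11, edgeR). MSMO1, which oxidizes methyl groups of the sterol ring, rose from 83.3 ± 2.5 to 180 ± 18.3 CPM (log2 fold change 1.03 ± 0.0604, adjusted p = 8.17e-12, edgeR). Smaller rises were found for EBP (0.70), NSDHL (0.68), CYP51A1 (0.60), LSS (0.53), FDFT1 (0.44) and HSD17B7 (0.34). The call of HSD17B7 was lost when MI Ctrl replicate 1 was dropped (0.31, adjusted p = 0.0555, edgeR) and when MI TGFβ replicate 3 was (0.20, adjusted p = 0.0975, edgeR). TM7SF2 and SC5D, a sterol reductase and a desaturase, had log2 fold changes of -0.10 and 0.00 and were not called.

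**Figure D1:**
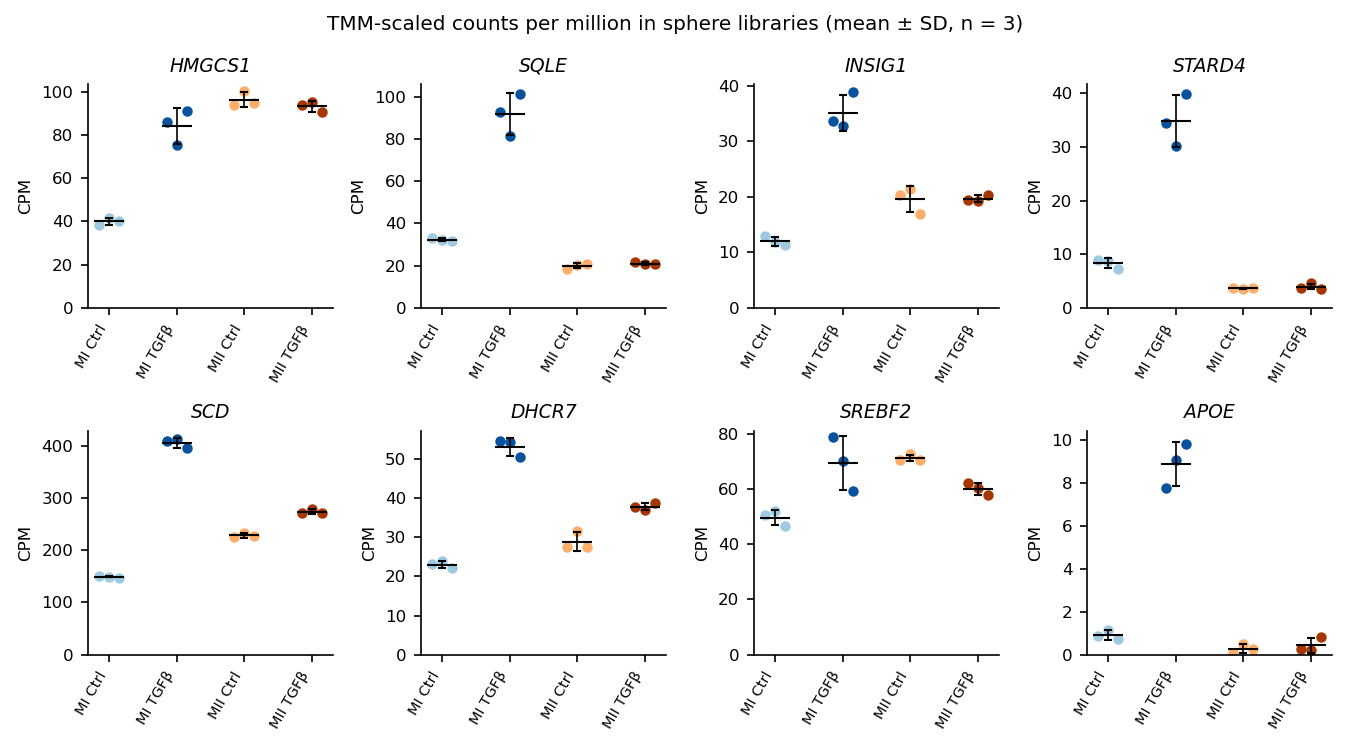
TMM-scaled CPM of 8 members in the 12 sphere libraries, by group on the horizontal axis: dots are libraries, and dashes with bars are the mean ± SD of 3 libraries. The 3 MI TGFβ libraries lie above the 3 MI Ctrl libraries in each panel, while SQLE stays between 18.7 and 21.7 CPM in the 6 MII libraries.

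INSIG1, which retains SCAP in the endoplasmic reticulum and is itself an SREBP target, was at 12.9, 11.8 and 11.3 CPM in MI Ctrl and at 33.7, 32.7 and 38.8 CPM in MI TGFβ. The groups did not overlap (log2 fold change 1.46 ± 0.085, adjusted p = 7.01e-12, edgeR). STARD4, a cytosolic sterol carrier, was at 8.92, 8.82 and 7.33 CPM without and at 34.5, 30.2 and 39.8 CPM with TGFβ. Its rise was larger than that of any enzyme, at 1.97 ± 0.102 (adjusted p = 9.66e-13, edgeR).

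SCD, the desaturase that makes monounsaturated fatty acids, was at 151, 149 and 148 CPM in MI Ctrl and at 410, 413 and 396 CPM with TGFβ. The libraries within each group lay close together, and the log2 fold change was 1.36 ± 0.0512 (adjusted p = 4.47e-15, edgeR). FASN, the fatty acid synthase, rose by 0.38, from 376 ± 22.3 to 518 ± 85.6 CPM. SREBF2 was at 50.5, 51.9 and 46.6 CPM without and at 79.1, 70.3 and 59.3 CPM with TGFβ, and rose by 0.40 ± 0.084 (adjusted p = 0.000391, edgeR). SREBF1 was at 215, 203 and 200 CPM without and at 240, 246 and 220 CPM with TGFβ. It was not called (log2 fold change 0.11 ± 0.0567, adjusted p = 0.107, edgeR), although its libraries did not overlap and 4 alternatives called it, DESeq2 among them (adjusted p = 0.0383). SCAP was not called either (0.04).

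The LXR genes of MI-spheres moved differently. ABCG1, an exporter of sterols to lipoproteins, was at 76.9, 78.2 and 78 CPM without and at 66.1, 71.7 and 67 CPM with TGFβ. It fell by 0.27 on the log2 scale (SE 0.0582, adjusted p = 0.00057, edgeR), with every stimulated library below every control library. MYLIP, a ubiquitin ligase of lipoprotein receptors, fell by 0.37 (SE 0.0611, adjusted p = 2.98e-05, edgeR), from 55.2, 55 and 59.4 CPM to 45.6, 44.9 and 48.3 CPM, also without overlap. ABCA1, the exporter to lipid-poor apolipoproteins, was at 4.18 ± 0.156 and 3.94 ± 0.801 CPM and was not called. NR1H2 and NR1H3 had log2 fold changes of -0.04 and -0.03 and were not called. NPC1, which releases cholesterol from lysosomes, was called lower (-0.21 ± 0.0756, adjusted p = 0.0249, edgeR), but its libraries overlapped and the call was lost in 5 alternatives, with DESeq2 among them (adjusted p = 0.132).

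APOE, the apolipoprotein, rose from a very low level. It had 22, 24 and 14 raw counts in MI Ctrl and 141, 202 and 230 raw counts in MI TGFβ, or 0.849, 1.16 and 0.727 CPM against 7.74, 9.05 and 9.8 CPM. The groups did not overlap (log2 fold change 3.20 ± 0.19, adjusted p = 9.87e-12, edgeR). Cell markers moved with TGFβ too: the basal keratin KRT5 was at 106.7 ± 2.47 CPM in MI Ctrl and 591 ± 20.1 CPM in MI TGFβ, EPCAM at 62.1 ± 3.95 and 139 ± 12.3 CPM, and VIM at 1.71 ± 0.105 and 7.46 ± 0.851 CPM. Their part in the rises of the members was not tested.

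In MII-spheres enzymes of the pathway moved in both directions with the same stimulation. Of the 7 mevalonate and isoprenoid enzymes, 4 were called higher and 0 lower, and of the 11 sterol branch enzymes 3 were called higher and 3 lower. Of the 31 members tested, 12 were called higher (of the 16396 genes tested, 29.9% were) and 6 lower (27.6% were). The number of DEGs among the members was 0, where 10.6% of all genes were DEGs, and DESeq2 found 0. In edgeR 18 members had an unadjusted p under 0.05. The share of all genes at that p is not given here. The members' median was 0.08 and that of all genes -0.02. The median log2 CPM over the 18 enzymes was 4.66 ± 0.081 in MII Ctrl and 4.56 ± 0.0483 in MII TGFβ. KRT5, EPCAM and VIM were higher with TGFβ in these spheres as well, at 201 ± 6.24, 296 ± 6.29 and 8.03 ± 2.29 CPM against 18.9 ± 1.07, 187 ± 8.06 and 2.75 ± 0.121 CPM.

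HMGCS1 was at 94, 100 and 94.8 CPM without and at 94, 95.2 and 90.5 CPM with TGFβ. SQLE was at 18.7, 20.6 and 20.9 CPM without and at 21.7, 20.7 and 20.7 CPM with TGFβ. INSIG1 was at 20.4, 21.4 and 16.9 CPM without and 19.4, 19.2 and 20.4 CPM with TGFβ. The groups overlapped in these 3 genes, and none was called in edgeR (log2 fold changes -0.09 ± 0.047, 0.03 ± 0.0808 and -0.04 ± 0.0868); HMGCS1 was called lower when 10 counts were required in every library (-0.12). STARD4 stayed low, at 3.77, 3.55 and 3.67 CPM without and 3.79, 4.6 and 3.6 CPM with TGFβ, and was not called. SCD rose from 225, 234 and 228 CPM to 271, 280 and 272 CPM, a small change with no overlap (log2 fold change 0.23 ± 0.0366, adjusted p = 6.2e-07, edgeR).

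EBP, the sterol isomerase, rose most of the members in MII-spheres. It was at 11.1, 8.67 and 10.1 CPM without and at 16.5, 16.4 and 15.6 CPM with TGFβ (log2 fold change 0.69 ± 0.105, adjusted p = 1.5e-07, edgeR). ACAT2 rose by 0.61 ± 0.128, DHCR7 by 0.34 ± 0.0679 and MSMO1 by 0.26 ± 0.052. TM7SF2 fell most: it was at 23.9, 25.8 and 23.7 CPM in MII Ctrl and at 15.5, 14.9 and 15.2 CPM with TGFβ. No library of one group reached the other (log2 fold change -0.73 ± 0.0827, adjusted p = 9.32e-11, edgeR).

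The SREBP genes moved in opposite directions. SREBF1 rose from 447, 489 and 440 CPM to 555, 522 and 584 CPM (0.23 ± 0.0381, adjusted p = 6.49e-07, edgeR), while SREBF2 fell from 70.6, 72.7 and 70.6 CPM to 62.1, 60.5 and 57.7 CPM (-0.28 ± 0.0531, adjusted p = 9.98e-06, edgeR). SC5D (-0.26), NPC1 (-0.28) and FDFT1 (-0.15) fell as well. The receptor NR1H3 fell from 43.5, 43.3 and 44.5 CPM to 35.3, 32.9 and 37 CPM (-0.35 ± 0.0632, adjusted p = 4.39e-06, edgeR).

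The exporters rose in MII-spheres. ABCA1 was at 348, 356 and 352 CPM without and at 426, 425 and 401 CPM with TGFβ (log2 fold change 0.21 ± 0.035, adjusted p = 1.08e-06, edgeR). ABCG1 rose by 0.20 ± 0.0438 (adjusted p = 0.000153, edgeR), and neither gene's groups overlapped. MYLIP was not called (0.08 ± 0.0493, adjusted p = 0.139, edgeR). APOE was left out by the low-count filter, with 1, 14 and 5 raw counts in MII Ctrl and 4, 3 and 12 in MII TGFβ.

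**Figure D2:**
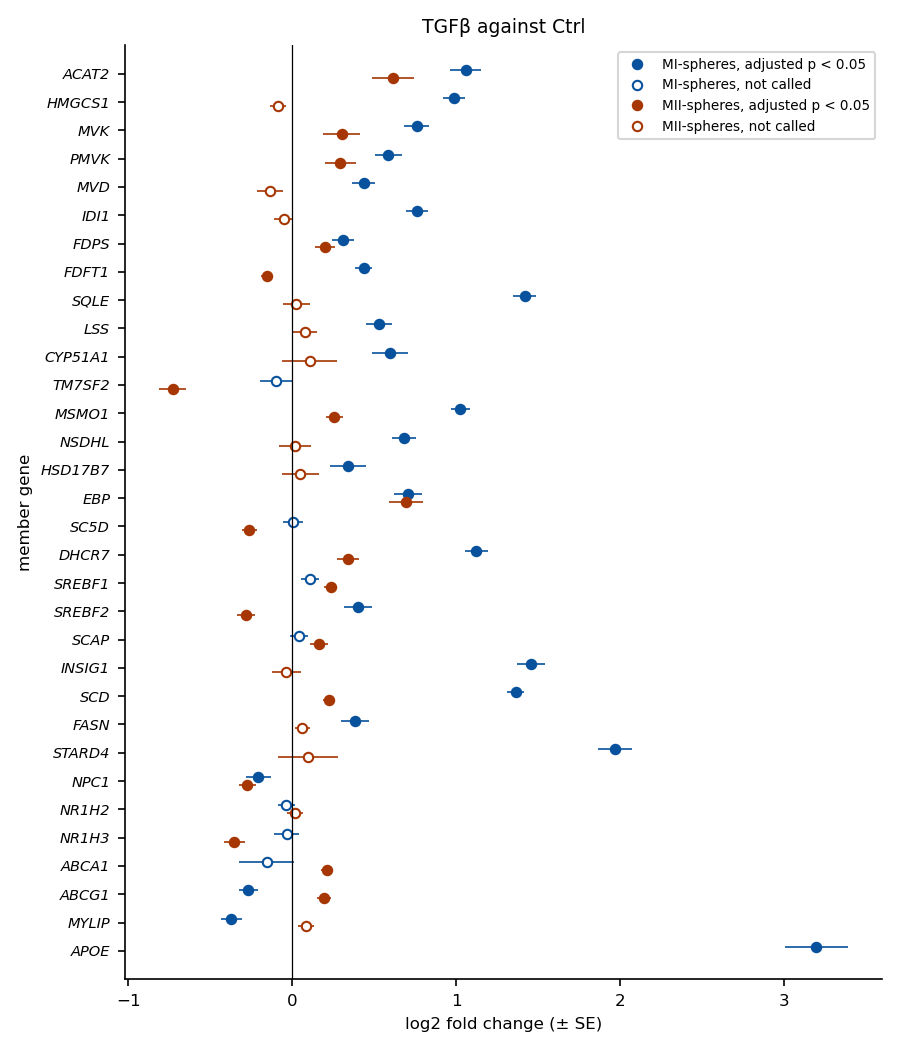
Log2 fold change ± SE of the 32 members between TGFβ and Ctrl (n = 3 libraries per group), in MI-spheres (blue) and MII-spheres (brown); filled dots have an adjusted p under 0.05 in edgeR's quasi-likelihood test. 22 members in MI-spheres and 12 in MII-spheres were called higher, and APOE was tested in MI-spheres alone.

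The difference between the lines was tested as the interaction of line and TGFβ in 1 fit of the 12 sphere libraries. The response was lower in MII- than in MI-spheres for 20 members, where it was for 9.75% of the 18591 genes tested, and higher for 3, where it was for 12.6%. In 6 members the called difference was beyond 1 on the log2 scale, against 5.84% of all genes. These were APOE (-2.78 ± 0.619), STARD4 (-1.86 ± 0.193), INSIG1 (-1.48 ± 0.126), SQLE (-1.38 ± 0.105), SCD (-1.13 ± 0.0618) and HMGCS1 (-1.06 ± 0.0827), with adjusted p from 1.97e-17 for SCD to 0.000703 for APOE (edgeR). The members' median was -0.45, and that of all genes was 0.00. APOE lost its call without MII Ctrl replicate 2 (log2 difference -2.01, adjusted p = 0.114, edgeR). The 3 members with the opposite sign were the LXR targets ABCG1 (0.47 ± 0.0719), MYLIP (0.46 ± 0.0781) and ABCA1 (0.37 ± 0.131). Not all LXR targets went this way, as APOE above shows. Of 7 further LXR partners and targets tested, 0 were called higher and 2 lower. The latter were APOC1 (-2.95 ± 0.629, adjusted p = 0.000425, edgeR) and SMPDL3A (-0.53 ± 0.185, adjusted p = 0.0328, edgeR). The call of ABCA1 (adjusted p = 0.0383, edgeR) was lost in 13 alternatives, with adjusted p up to 0.274. EBP had a difference of 0.00 ± 0.175 and was not called.

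The starting levels of the lines differed as well. The line comparisons share their libraries with the stimulation contrasts, so they are not independent of them. Without TGFβ, 14 members were called higher in MII- than in MI-spheres and 14 lower, where 31.7% of the 17862 genes tested were called higher and 32.5% lower. 5 members were DEGs (20.1% of all genes were), and the members' median was -0.02. ABCA1 (chr9:104781006-104928155, minus strand, GRCh38.p13) differed most: 4.09, 4.1 and 4.36 CPM in MI Ctrl against 348, 356 and 352 CPM in MII Ctrl. That was an 84.9-fold difference (log2 fold change 6.41 ± 0.0591, adjusted p = 4.22e-59, edgeR).

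SREBF1 was at 215, 203 and 200 CPM in MI Ctrl and at 447, 489 and 440 CPM in MII Ctrl. The libraries of the lines did not overlap (log2 fold change 1.17 ± 0.0383, adjusted p = 4.7e-33, edgeR). HMGCS1 was higher in MII Ctrl by 1.28 ± 0.0515, NR1H3 by 0.82 ± 0.0621, INSIG1 by 0.72 ± 0.0898, SCD by 0.63 ± 0.0373, MYLIP by 0.47 and ABCG1 by 0.44. On the lower side, APOE differed by -1.53 ± 0.439, STARD4 by -1.19 ± 0.138, MVK by -0.85 ± 0.0929 and FASN by -0.54 ± 0.046.

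Among the 18 enzymes the lines differed in both directions. HMGCS1 was higher, ACAT2, MVK, PMVK and FDPS were lower, and MVD and IDI1 were not called. In the sterol branch FDFT1 (0.61), TM7SF2 (0.68), SC5D (0.30) and DHCR7 (0.35) were higher, while SQLE (-0.67), LSS (-0.58), CYP51A1 (-0.67), EBP (-0.61), MSMO1 (-0.29) and NSDHL (-0.20) were lower. NSDHL lost its call in 7 of 13 alternatives, with adjusted p up to 0.292 (edgeR).

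With TGFβ, 19 of the 32 members were called lower in MII- than in MI-spheres and 7 higher, where 31.6% of the 15878 genes tested were called lower and 31.1% higher. 10 members were DEGs, against 19.8% of all genes, and the members' median was -0.42. SQLE, whose libraries are given above for both lines, differed by -2.05 ± 0.073 (adjusted p = 5.01e-17, edgeR). STARD4 differed by -3.04 ± 0.121 (adjusted p = 4.56e-16, edgeR), APOE by -4.28 ± 0.28 and MSMO1 by -1.04 ± 0.0578. INSIG1, higher in MII-spheres without TGFβ, was lower with it (-0.76 ± 0.0812), as was SCD (-0.49 ± 0.0493). HMGCS1 was still called higher in MII-spheres (0.23 ± 0.0585), although its libraries overlapped and the call was lost with a gene length trend removed (adjusted p = 0.124, edgeR).

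ABCA1 stood at 3.35, 3.63 and 4.85 CPM in MI TGFβ and at 426, 425 and 401 CPM in MII TGFβ (log2 fold change 6.78 ± 0.0811, adjusted p = 6.36e-26, edgeR). SREBF1 (1.31 ± 0.0587), MYLIP (0.94 ± 0.0581) and ABCG1 (0.92 ± 0.0582) were also higher in MII-spheres. Of the 4 leukocyte and endothelial markers listed, 2 were called higher and 1 lower in MII Ctrl than in MI Ctrl. The endothelial marker PECAM1 was at 104.7 ± 1.71 CPM in MII Ctrl and 9.8 ± 0.956 CPM in MI Ctrl, and the monocyte marker CD14 at 193 ± 2.55 and 101.7 ± 4.08 CPM. Another endothelial marker, VWF, was lower (0.185 ± 0.106 against 1.33 ± 0.254 CPM), and the leukocyte marker PTPRC was at 0.0847 CPM in MII Ctrl and 0 CPM in MI Ctrl. The spheres of each line were grown from 1 cell line alone, so these are levels within epithelial cultures. Their relation to the difference between the lines in the members was not tested.

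Across the 12 sphere libraries, the genes whose log2 CPM followed HMGCS1 most closely were SLITRK6 (Pearson's r = 0.987), ITGB6 (0.984), KIF21A (0.984), AMIGO2 (0.982) and MRC2 (0.980), of 18590 genes. Among the other members r ran from -0.339 for FASN to 0.967 for FDFT1, the closest, and was -0.0996 for SQLE. The 12 points fall into 4 groups that share their line or treatment, so these values are a description.

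**Figure D3:**
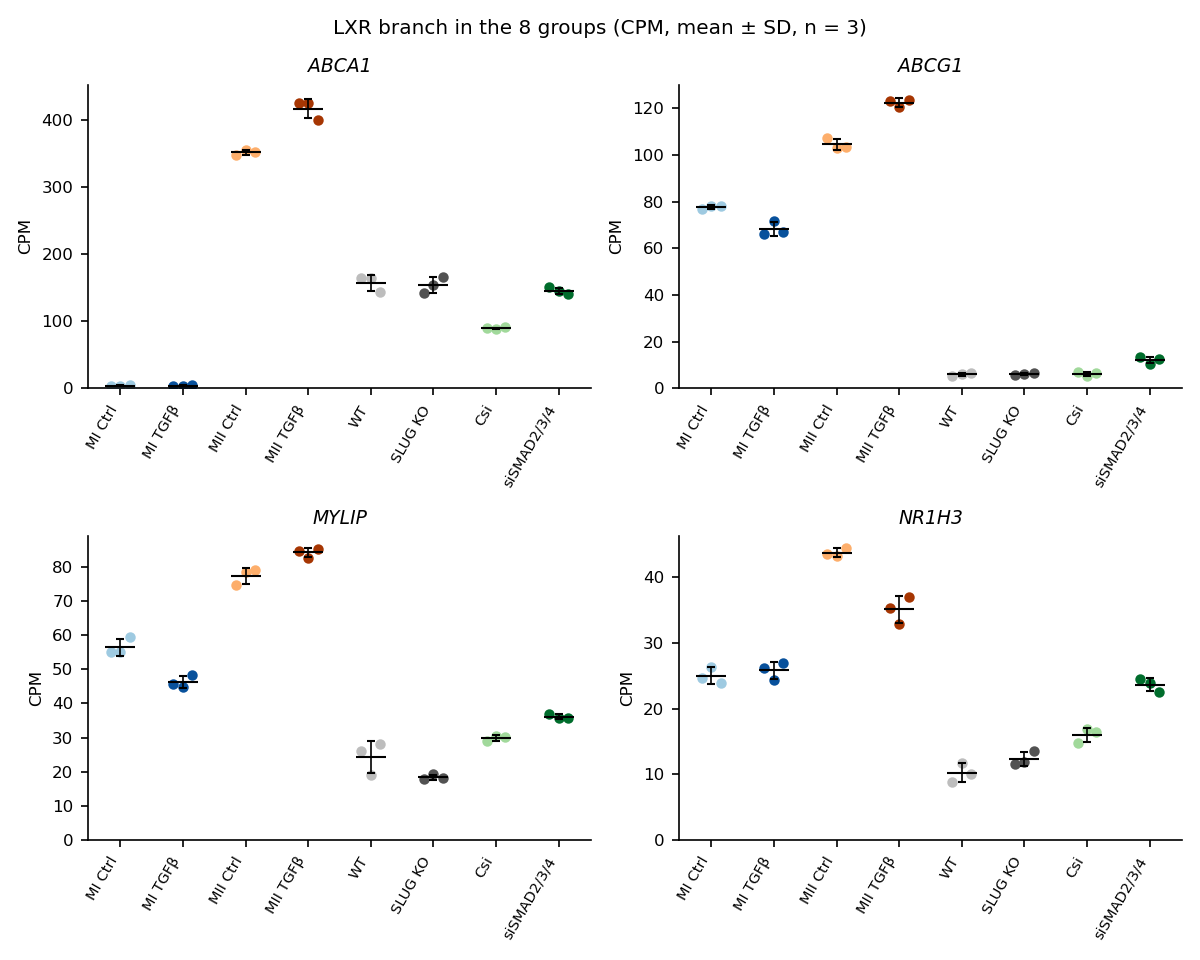
CPM of ABCA1, ABCG1, MYLIP and NR1H3 in the 24 libraries by group: dots are libraries, dashes with bars the mean ± SD of 3, and each vertical axis starts at 0. ABCA1 is at 4.18 ± 0.156 CPM in MI Ctrl, 352 ± 4.33 CPM in MII Ctrl, 89.9 ± 0.893 CPM in Csi and 146 ± 4.77 CPM in siSMAD2/3/4.

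In MDA-MB-231 cells, siSMAD2/3/4 was set against Csi to ask which genes depend on the SMADs that carry TGFβ signals. Of the 32 members, 19 were called lower and 7 higher, where 19.7% of the 17696 genes tested were called lower and 16.3% higher. The number of DEGs among the members was 0, against 1.9% of all genes, and DESeq2 found 0. In edgeR 27 members had an unadjusted p under 0.05. The share of all genes at that p is not given here. The median was -0.28 for the members and 0.00 for all genes. All 7 mevalonate and isoprenoid enzymes and 9 of the 11 sterol branch enzymes were called lower. The median log2 CPM over the 18 enzymes was 6.36 ± 0.0169 in Csi and 5.98 ± 0.0301 in siSMAD2/3/4.

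INSIG1 was at 454, 489 and 461 CPM in Csi and at 241, 242 and 253 CPM in siSMAD2/3/4. It fell by 0.94 on the log2 scale (SE 0.04, adjusted p = 8.95e-18, edgeR), the largest fall of the 32. HMGCS1 fell from 193, 203 and 204 CPM to 118.5, 115 and 127 CPM (log2 fold change -0.74 ± 0.0434, adjusted p = 8.87e-15, edgeR). FDPS fell from 114, 115 and 114 CPM to 79.3, 78.1 and 79.7 CPM (log2 fold change -0.54 ± 0.043, adjusted p = 1.13e-11, edgeR). In these 3 genes no library of one group reached the other.

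EBP (-0.61), CYP51A1 (-0.58), HSD17B7 (-0.55) and SQLE (-0.48) fell by less than INSIG1, and MVK (-0.39), SC5D (-0.39), MSMO1 (-0.34) and DHCR7 (-0.17) by less again. LSS was not called (-0.06), and TM7SF2 was called higher (0.32 ± 0.0707). SCD, at 2818 ± 62.8 CPM in Csi, was not called (-0.09 ± 0.0359, adjusted p = 0.0523, edgeR), whereas DESeq2 called it lower (adjusted p = 0.00715). SREBF2 (-0.02) and SCAP (0.04) were not called. SREBF1 was called higher, at 456, 468 and 429 CPM against 412, 384 and 384 CPM (0.19 ± 0.0412).

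Of the LXR receptors and target genes among the members, ABCA1, ABCG1, NR1H3 and MYLIP were higher in siSMAD2/3/4. ABCA1 was at 89.8, 89 and 90.8 CPM in Csi and at 151, 145 and 141 CPM in siSMAD2/3/4 (log2 fold change 0.69 ± 0.0422, adjusted p = 2.54e-14, edgeR). ABCG1 was at 6.84, 5.32 and 6.38 CPM against 13.3, 10.6 and 12.7 CPM (0.98 ± 0.109, adjusted p = 1.13e-08, edgeR). NR1H3 rose from 14.8, 16.8 and 16.4 CPM to 24.4, 23.9 and 22.5 CPM (0.55 ± 0.0733, adjusted p = 3.03e-07, edgeR), and MYLIP rose by 0.27 ± 0.0589. None of these 4 genes had overlapping groups. APOE had between 47 and 81 raw counts per library and was not called, and NR1H2 was not called either (0.05).

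Flow cell moves with the groups here. Per the file headers, siSMAD2/3/4 replicates 1 and 2 came from a flow cell that held no Csi library, and siSMAD2/3/4 replicate 3 shared its flow cell with all 3 Csi libraries. The labels go against this: they give all 6 libraries the same batch, named as the flow cell of the Csi libraries. Which of them is right could not be settled here, and the fit with the term follows the headers. With flow cell as a term, the contrast sets 1 library, siSMAD2/3/4 replicate 3, against the Csi libraries; it is assumed to vary as the Csi libraries and siSMAD2/3/4 replicates 1 and 2 do among themselves. In that fit INSIG1, HMGCS1 and ABCA1 had log2 fold changes of -0.88, -0.66 and 0.66. The members no longer called kept their sign, with larger SEs: PMVK was at -0.31 ± 0.127 (-0.35 ± 0.088 without the term), NSDHL was at -0.16 ± 0.0793 (-0.20 ± 0.0564 without the term), STARD4 was at -0.09 ± 0.0586 (-0.23 ± 0.0493 without the term), TM7SF2 was at 0.21 ± 0.0973 (0.32 ± 0.0707 without the term), SREBF1 was at 0.13 ± 0.0544 (0.19 ± 0.0412 without the term) and FASN at 0.09 ± 0.0577 (0.18 ± 0.0454).

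**Figure D4:**
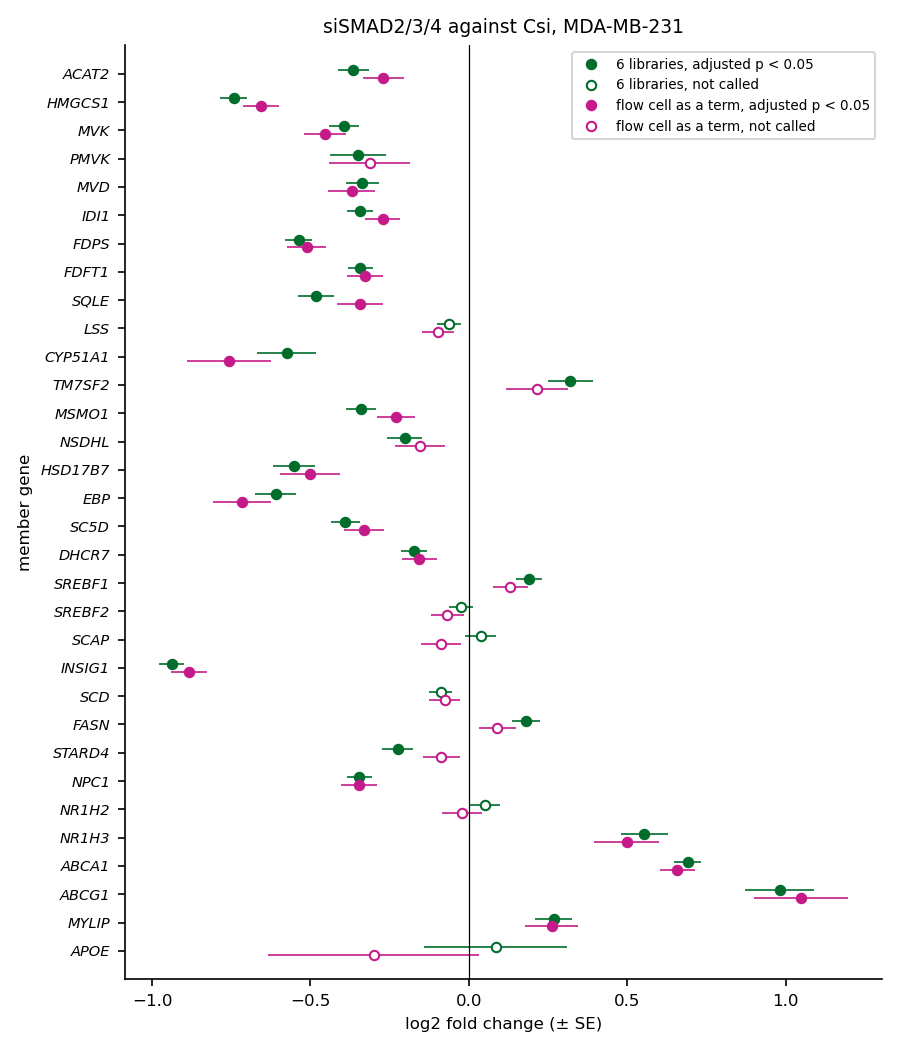
Log2 fold change ± SE of the 32 members between siSMAD2/3/4 and Csi (n = 3 libraries per group), from the 6 libraries without and with flow cell as a term; filled dots have an adjusted p under 0.05. 19 members were called lower without the term, and INSIG1 was at -0.94 without and -0.88 with it.

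For the libraries labelled SLUG KO, few members passed the test and the result turned on 1 library. With all 6 libraries, 2 of the 31 members tested were called higher and 0 lower, where 1.45% of the 17428 genes tested were called higher and 1.89% lower. In edgeR 11 members had an unadjusted p under 0.05, and DESeq2 called 4 higher and 0 lower. The shares of all genes under these rules are not given here. Both called members were DEGs, against 3.05% of all genes. DHCR7 was at 132, 110 and 129.4 CPM in SLUG KO and at 53.6, 48.1 and 55.5 CPM in WT (log2 fold change 1.21 ± 0.163, adjusted p = 0.0111, edgeR). TM7SF2 was at 23.4, 20 and 20.3 CPM against 7.97, 12.2 and 8.78 CPM (1.11 ± 0.22, adjusted p = 0.0431, edgeR). In both genes every library labelled SLUG KO was above every WT library. Leaving out single libraries ended the call of DHCR7 in 4 cases (SLUG KO replicates 1, 2 and 3 and WT replicate 1, adjusted p up to 0.101) and that of TM7SF2 in 5 (every library but WT replicate 2, adjusted p up to 0.216).

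WT replicate 2, which stood apart over all genes, lay below both other WT libraries in some members and above both in others. MSMO1 was at 16.4 CPM there, against 72.9 and 84.8 CPM, STARD4 at 22.2 against 74.7 and 78.2 CPM and IDI1 at 27.1 against 91.6 and 93.1 CPM. FASN was at 1103 CPM there, against 206 and 191 CPM, SREBF1 at 230 against 73.1 and 79.6 CPM and SREBF2 at 156 against 55.4 and 44.4 CPM. MSMO1, STARD4 and IDI1 thus stood on the opposite side from FASN and the SREBP genes in this 1 library.

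Without WT replicate 2, 22 members were called higher and 2 lower, where 16.8% of the 17909 genes tested were called higher and 14.4% lower. The members' median was 0.47, against 0.39 with all 6 libraries. TM7SF2 (1.33), DHCR7 (1.17), LSS (0.92), INSIG1 (0.86), MSMO1 (0.86), HMGCS1 (0.76) and SCD (0.75) had the largest log2 fold changes. SREBF1, SREBF2 and FASN had log2 fold changes of -0.19, -0.30 and -0.78 with all 6 libraries and were called higher, at 0.57, 0.49 and 0.57, without it. FDFT1 (-0.44) and MYLIP (-0.57) were called lower. ABCA1 was at 143, 155 and 166 CPM in SLUG KO and 165, 164 and 143 CPM in WT and was called in neither fit.

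**Figure D5:**
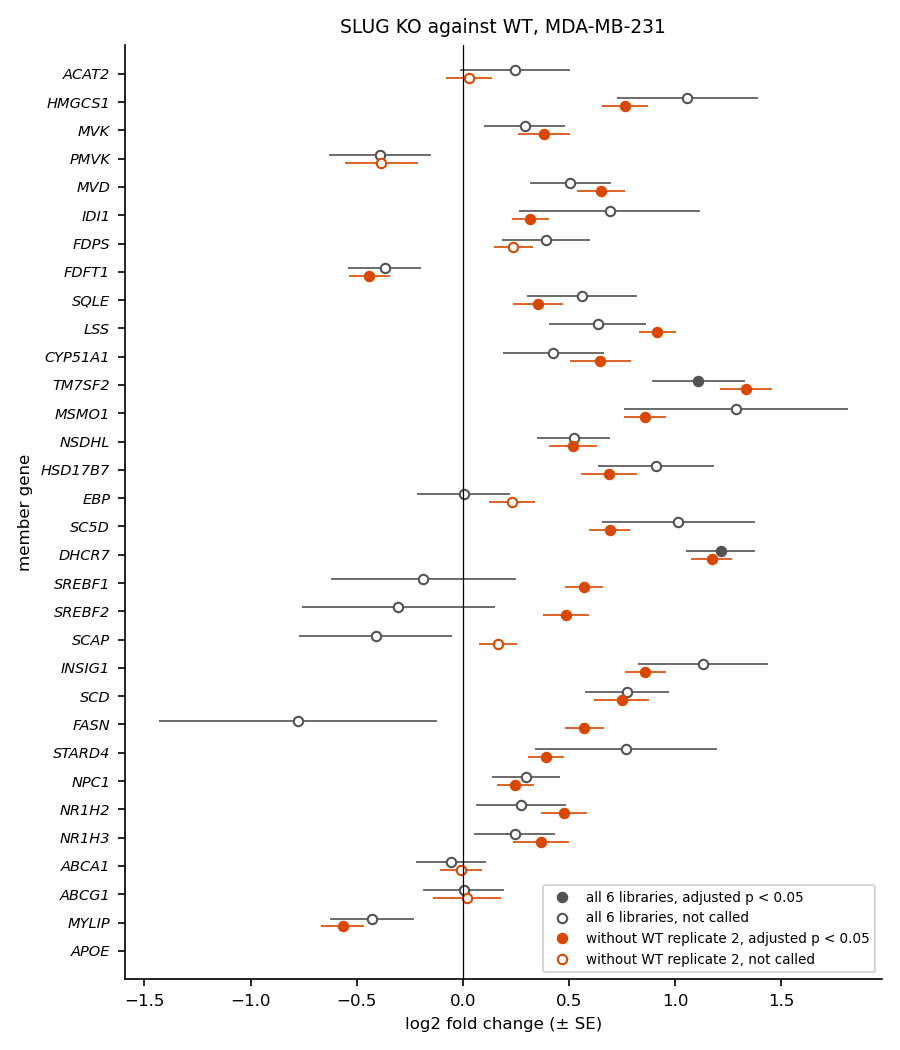
Log2 fold change ± SE of 31 members between the libraries labelled SLUG KO and WT, from all 6 libraries and without WT replicate 2; filled dots have an adjusted p under 0.05. 2 members were called from all 6 libraries, and 22 higher and 2 lower without WT replicate 2.

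Levels can be compared between members only per length. In CPM per kilobase of exon, SCD ranked first of the 32 members in Csi (537), siSMAD2/3/4 (507), WT (68.6), SLUG KO (120) and MI TGFβ (77.5). SREBF1 was first in MII Ctrl (55.7) and MII TGFβ (67.2), and FASN in MI Ctrl (40.3). ABCA1 was last of the 32 in MI Ctrl (0.369) and among the first 4 in MII Ctrl (31). INSIG1 and SCD were among the members with their highest group mean CPM in Csi. WT and Csi are cells of the same line, yet they lay far apart: INSIG1 was at 91.1 ± 34.4 CPM in WT and 468 ± 18.7 CPM in Csi, and SCD at 360 ± 53.5 and 2818 ± 62.8 CPM. Sequencing batch and siRNA transfection differ between these groups and cannot be told apart, so no test was made.

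Some members share exon bases with other genes, and reads there were not assigned. The share was 84.5% of the exon bases of CYP51A1, 37.7% of HMGCS1, 36.4% of EBP and 22.2% of ACAT2. FDPS has 8 pseudogenes named after it and IDI1, HSD17B7 and CYP51A1 have 3 each, so their counts are less certain.

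Further genes of the network, in 5 lists with 54 genes, give the setting. Of the 49 tested in MI-spheres, 29 were called higher (28.7% of all genes were) and 5 lower (27.4% were) with TGFβ (median 0.34). In MII-spheres 26 of 49 were called higher (29.9% of all genes) and 4 lower (27.6%; median 0.22). ELOVL5, a fatty acid elongase, rose by 1.49 in MI- and 0.64 in MII-spheres, and ACLY, which makes cytosolic acetyl-CoA, by 0.83 and 0.45. LIPA, the lysosomal lipase, rose by 0.74 and 0.56, and PDSS1, of the ubiquinone branch, by 0.71 and 0.75. In MI-spheres the lipoprotein receptor VLDLR rose by 1.67 and APOC1, an apolipoprotein and LXR target, by 2.70. In MII-spheres TMEM97, a sterol-regulated membrane protein, rose by 1.11. The interaction was called lower for 13 and higher for 7 of 50 genes (9.75% and 12.6% of all genes), and VLDLR (-1.16 ± 0.13), ELOVL5 (-0.84 ± 0.0852) and TMEM97 (0.86 ± 0.143) were among them.

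Between the lines, 15 of 50 listed genes were called higher (31.7% of all genes were) and 23 lower (32.5%) in MII Ctrl, and 15 (31.1% of all genes) and 23 (31.6%) of 50 with TGFβ, so the count of higher genes was near the share over all genes. The LXR target LPCAT3 was higher in MII Ctrl (0.88) and SMPDL3A was lower (-1.33). With siSMAD2/3/4, 10 of 51 were called higher (16.3% of all genes were) and 17 lower (19.7% were; median -0.01). TMEM97 (-0.94), ERLIN1 (-0.53), FADS1 (-0.46) and ACLY (-0.42) fell, and LPCAT3 (0.38), GRAMD1A (0.34), RNF145 (0.29) and ACACA (0.25) rose. Of the 7 further LXR partners and targets tested, 2 were called higher and 2 lower; the latter were APOC1 (-0.76 ± 0.183, adjusted p = 0.00133, edgeR) and SMPDL3A (-0.44 ± 0.107, adjusted p = 0.00152, edgeR), opposite in sign to ABCA1 and ABCG1. In the SLUG KO comparison with all 6 libraries, VLDLR (-1.48), GRAMD1B and LPL were called lower, of 52 tested (1.89% of all genes were). GRAMD1B was at 0.0265 CPM in SLUG KO and 2.25 CPM in WT, and LPL at 0.0305 and 0.957 CPM.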

How the data were processed

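RNA-seq count files of 24 libraries were used, and 16 ATAC-seq samples of the series are not analysed here. Per the file headers and the study's methods, the authors used Trimmomatic for trimming and STAR for alignment to GRCh38, and deposited raw fragment counts per gene, made with featureCounts (Subread 2.0.0) over the exons of GENCODE 38, with a mapping quality of at least 30, without strand, multi-mapping reads or reads over several genes. Batch labels separate the spheres and WT and SLUG KO libraries from the Csi and siSMAD2/3/4 libraries, and the flow cell in the file headers of siSMAD2/3/4 replicates 1 and 2 differs from their batch label. The labels call the libraries of a group biological replicates.

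Counts were fitted with edgeR 4.0.16 (R 4.3.3, limma 3.58.1): TMM scaling, filterByExpr with a minimum count of 10, the quasi-likelihood test and Benjamini-Hochberg adjustment over all genes tested. Each comparison used its own 6 libraries, and the interaction of line and TGFβ the 12 sphere libraries. CPM were scaled over all 24 libraries, so that a log2 ratio of printed CPM differs from the fitted fold change by 0.08 in MI-spheres, 0.04 in MII-spheres, -0.01 and -0.08 between the lines without and with TGFβ, 0.03 for SLUG KO and 0.01 for siSMAD2/3/4 at the median gene. Likeness to HMGCS1 used log2(CPM + 0.5). The tests were checked on simulated data.

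Alternatives were DESeq2 1.42.0, edgeR with the size factors of DESeq2, a stricter filter (10 counts or more in each library) or none, a gene length trend removed, all 12 sphere libraries in 1 fit, the replicate number as a block, flow cell as a term and each library left out. Per-library values were given for a set of members (HMGCS1, SQLE, INSIG1, SREBF1, SREBF2, SCD, STARD4, ABCA1, ABCG1, MYLIP, NR1H3, APOE) and for the 3 called, non-overlapping members of lowest adjusted p per direction; other values were chosen after they were seen. Up to 3 genes of each further list were named by smallest adjusted p. The members and lists were chosen with earlier results of these data known, and 1 gene of the further lists is not reported here and is in no count of them. Promoter windows are from RefSeq and were matched by symbol.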

Additional observations from a re-analysis of the deposited data

Results flagged for a closer look

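The interaction test found a different TGFβ response in MII- and MI-spheres for 23 members (MII minus MI, log2 scale, edgeR with adjusted p under 0.05). Among the mevalonate and isoprenoid enzymes it was -0.43 for ACAT2, -1.06 for HMGCS1, -0.45 for MVK, -0.56 for MVD and -0.81 for IDI1. In the sterol branch it was -0.58 for FDFT1, -1.38 for SQLE, -0.44 for LSS, -0.62 for TM7SF2, -0.76 for MSMO1, -0.65 for NSDHL, -0.26 for SC5D and -0.77 for DHCR7. In the SREBP system and its other targets it was -0.67 for SREBF2, -1.48 for INSIG1, -1.13 for SCD, -0.31 for FASN and -1.86 for STARD4. Among the LXR genes it was -0.31 for NR1H3, 0.37 for ABCA1, 0.47 for ABCG1, 0.46 for MYLIP and -2.78 for APOE. The calls of ACAT2 (lost in 9 alternatives), FASN (3), NR1H3 (1), APOE (1) and ABCA1 (13) did not hold in every alternative. Groups of 3 libraries are too small for a test of single outlying libraries.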

How the results depend on the processing

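Of 3012 values of single members under alternatives, 2895 stayed on their side of the threshold, 69 lost the call and 45 gained it. Another 3 changed sign with a call, and those 3 came without WT replicate 2. Among the 2895, a value called in neither fit could change sign, as SC5D did in MI-spheres (-0.0505 to 0.0495). In MII-spheres the members' median TGFβ response was 0.12 with DESeq2, 0.115 without a low-count filter, 0.037 with 10 counts in every library, 0.10 with the length trend removed and 0.11 in the fit of 12 libraries, and 0.0376 to 0.1047 with each library left out. The median difference between unstimulated lines was -0.0501 with DESeq2, -0.0636 without a filter, 0.0168 with 10 counts in every library, -0.0739 with the length trend removed and -0.0399 to -0.0229 with each library left out. These medians lie close to 0, and their shifts' cause was not tested.

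In SLUG KO, 4 members were called higher with DESeq2, 1 with 10 counts in every library (also 1 DEG) and 0 to 22 with each library left out, with 0 to 2 lower and 0 to 2 DEGs. Leaving out 1 library moved SREBF1 between -0.44 and 0.57, SREBF2 between -0.59 and 0.49 and FASN between -1.14 and 0.57; the positive values are those without WT replicate 2. With siSMAD2/3/4, ABCG1 was at 1.05 with flow cell as a term. Leaving out each library gave 0 to 1 DEGs and a median of -0.3029 to -0.2216. Deviations of same-numbered libraries correlated at -0.218 to 0.06. These values show no pairing by number, but they cannot exclude that such libraries were handled together. With the replicate block, 0 members were called higher and 0 were DEGs in SLUG KO (2 without). In MI-spheres 23 were higher (22 without), and no other count of called members moved.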
